A study of Mus musculus with 24 samples.

Results

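The anoctamins are a family of 10 membrane proteins, and the mouse genes Ano1 to Ano10 were followed here in the lung and retina of newborn mice. Members were the rows whose Ensembl identifier carries one of these symbols, and all 10 were listed among 36109 genes in the lung table and 36595 in the retina table. The family was picked because Ano3 was high in hyperoxic lungs, so its members were chosen by the lung differences between hyperoxia and room air (RA); these values are given as a description, without p-values, and calls counted in them support nothing. The other lung comparisons and all retina comparisons were not used in that choice and were tested. The other lung comparisons reuse the same lungs, however, so their Ano3 values are not independent of the choice.

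In all, 12 lungs and 12 retinas, with 1 tissue per mouse, were sequenced in 4 groups of 3 mice per tissue. The groups were wild type in room air (WT-RA), wild type in hyperoxia (WT-O2), GSDMD knockout in room air (KO-RA) and GSDMD knockout in hyperoxia (KO-O2). All mice were C57/B6. The homozygous knockouts carry a constitutive CRISPR deletion of 38 bp in exon 5 of Gsdmd in every cell. The study's methods describe them as littermates of the wild types. The labels do not give the litter of each mouse, and mouse numbers fell in separate blocks by genotype. WT lungs were GSD398 to GSD406, and KO lungs GSD061, GSD097 and GSD490 to GSD497. WT retinas were GSD345 to GSD383, and KO retinas GSD301 to GSD310. An effect of litter or collection date was not tested. Lungs were taken at postnatal day 15 after 85% or 21% oxygen from day 1 to 14. Retinas were taken at day 18, after 75% oxygen from day 7 to 12 and recovery in room air, or after room air throughout.

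Gsdmd, which encodes the pore-forming protein gasdermin D, ran from 32.2 to 42.3 CPM (a gene's count scaled to a common library size) in the 6 WT lungs and from 11.7 to 24.8 CPM in the 6 KO lungs. Its transcript was therefore lower but still counted in knockouts. In the retina the KO libraries ran from 0.636 to 2.95 CPM and the WT libraries from 0.419 to 5.70 CPM. The library numbered WT-RA replicate 2 here (mouse GSD382) gave the lowest of these values, at or below the knockouts, and is kept under its labelled group. Replicate numbers were assigned here and are not in the labels. Crystallin and other lens markers summed to more than 10000 CPM in 3 of the 12 retina libraries (15740 to 54070 CPM), against 2.26 to 264 CPM in the other 9. The 3 were WT-RA replicates 2 and 3 (GSD382, GSD383) and KO-RA replicate 3 (GSD304). Levels are given for all 12 retinas, while counts of called members and the fold changes of Ano1, Ano3, Ano6, Ano7 and Ano10 are given with and without these 3. Rod markers summed to 48500 to 72570 CPM in every retina, and alveolar type 2 markers to 13250 to 21090 CPM in every lung. Y-linked transcripts were present in 0, 1, 2 and 3 of 3 lungs and in 3, 1, 3 and 1 of 3 retinas, taking the groups in the order WT room air, WT hyperoxia, KO room air and KO hyperoxia, so sex ran partly with the groups.

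Anoctamins work in 2 broad ways. Some open as chloride channels when calcium rises, and others let phospholipids cross between the leaflets of a membrane, so that phosphatidylserine reaches the outside. ANO1 and ANO2 are the calcium-activated chloride channels of the family: ANO1 is known from airway epithelium, glands and smooth muscle, and ANO2 from olfactory cilia and the synaptic terminals of photoreceptors. ANO6 is the scramblase that exposes phosphatidylserine on activated platelets. ANO3 and ANO4 are known mainly from neurons, ANO5 from skeletal muscle, ANO7 from prostate, and ANO9 from epithelia, while ANO8 ties the endoplasmic reticulum to the plasma membrane and ANO10 is an intracellular member linked to ataxia.

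Sequences upstream of Ano3 and Ano1 are shown because these genes had the largest lung values of the contrast that chose the family. They come from RefSeq (GRCm38.p6), which gave 11 windows for 8 of the 10 members; Ano8 and Ano9 had no entry. Each is the part of a window before a RefSeq start that lies in no annotated exon, written 5′ to 3′ with CG dinucleotides in capitals. Ano3 (ENSMUSG00000074968) spans chr2:110655201-110950923 and Ano1 (ENSMUSG00000031075) chr7:144588549-144751974, both on the minus strand (GENCODE M21, GRCm38). The Ano3 stretch, chr2:110840060-110840309, lies before the second of its RefSeq starts, and the Ano1 stretch is chr7:144738593-144738823. Both lie inside the gene's span, outside its exons. The bases just after the Ano3 start were found in no annotated Ano3 transcript, while those after the Ano1 start were found in an Ano1 transcript.
Ano3: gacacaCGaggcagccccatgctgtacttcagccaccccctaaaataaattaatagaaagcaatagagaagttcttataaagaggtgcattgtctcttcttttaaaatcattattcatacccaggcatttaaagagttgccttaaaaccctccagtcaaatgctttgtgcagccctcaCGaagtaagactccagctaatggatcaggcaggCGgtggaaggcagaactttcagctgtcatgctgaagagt
Ano1: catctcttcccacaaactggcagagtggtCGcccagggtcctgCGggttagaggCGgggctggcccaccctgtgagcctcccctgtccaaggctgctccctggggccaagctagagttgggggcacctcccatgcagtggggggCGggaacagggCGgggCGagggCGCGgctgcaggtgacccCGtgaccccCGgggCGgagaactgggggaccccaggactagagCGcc
The Ano3 stretch held 3 CG dinucleotides in 250 bases at a GC content of 43.6%. The Ano1 stretch held 12 in 231 bases at 71% GC. Among 32851 windows of 250 bases the median GC content was 52.4%, and 20.1% of windows lay below the Ano3 stretch against 92.2% below the Ano1 stretch. These values describe the 2 stretches shown and not every start of these genes.

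In room air the lung family was led by the scramblase gene Ano6. Per kilobase of the longest coding transcript, Ano6 reached 37.6 ± 2.63 CPM per kb in WT-RA lungs (SD, n = 3), Ano10 16.5 ± 0.826, Ano1 15.3 ± 0.755 and Ano8 7.99. The ranges of Ano10 and Ano1 overlapped, and those of Ano6 and Ano8 stood clear of their neighbours in the order. The other 6 members lay below 1 CPM per kb: Ano9 (0.457) and Ano5 (0.439) overlapped, followed by Ano4 (0.187), Ano7 (0.0854), Ano2 (0.0617) and, last of the 10, Ano3 (0.0155). KO-RA lungs had nearly the same order, with Ano6 at 35.5 ± 0.856 CPM per kb, Ano1 at 16.4 ± 0.776 and Ano10 at 16.1 ± 0.417, the last 2 overlapping.

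In hyperoxia the order changed at the top and at the bottom. In WT-O2 lungs Ano1 (45.9 ± 2.64 CPM per kb) and Ano6 (43.9 ± 0.968) overlapped at the head, and Ano3 stood at 3.55 CPM per kb, next after Ano8 at 6.65 and clear of it. In KO-O2 lungs Ano1 reached 54.7 ± 4.24 CPM per kb and did not overlap Ano6 at 43.9 ± 5.10, and Ano3 again came next after Ano8, at 3.35. The summed level of the family was 78.6 ± 2.08 (room air) and 122 ± 2.61 CPM per kb (hyperoxia) in WT lungs, and 77.3 ± 1.09 and 130 ± 4.4 in KO lungs. The Ano1 share of that sum was 19.5% in WT-RA and 37.7% in WT-O2, and 21.3% in KO-RA and 42.3% in KO-O2. Ano6 went from 47.8% to 36.1% in WT and from 46.0% to 33.9% in KO, while Ano3 held 0.0194% and 2.91% of the WT sum.

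**Figure D1:**
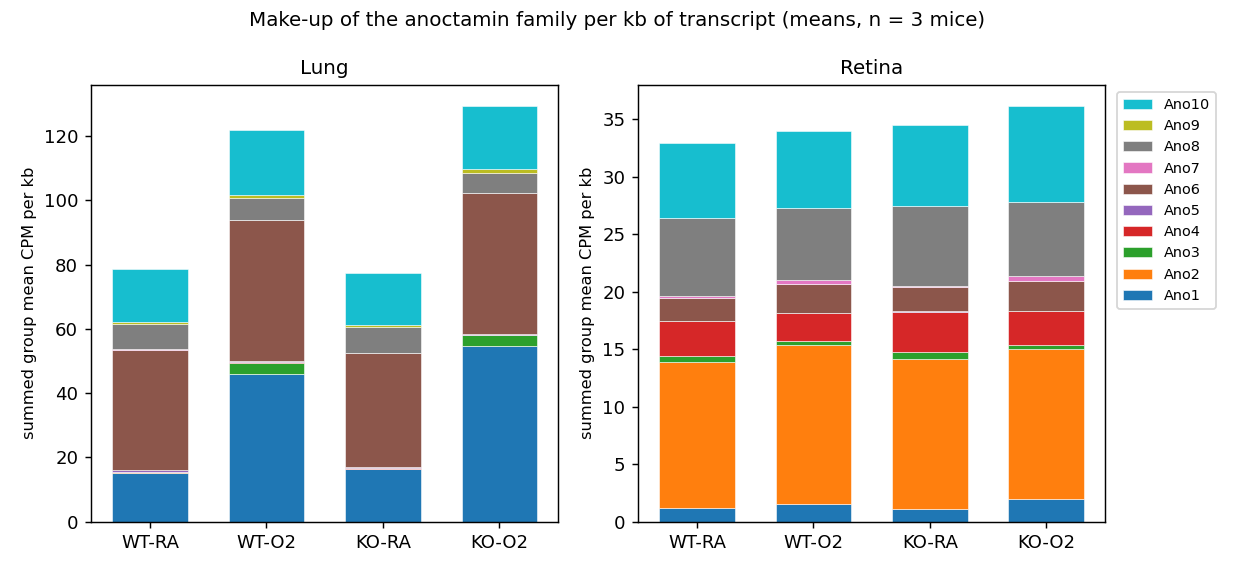
Summed group mean levels of the 10 anoctamins in CPM per kb of the longest coding transcript, stacked by member, for the 4 groups of each tissue (n = 3 mice per bar). In the lung the Ano1 layer is 15.3 in WT-RA and 45.9 in WT-O2; in the retina Ano2 is the thickest layer in every group, between 12.7 and 13.8.

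Ano3 was close to absent in room air. Its counts were 6, 2 and 1 in the WT-RA lungs and 2, 1 and 5 in the KO-RA lungs, or 0.0344 to 0.209 CPM, where 3 counts correspond to about 0.1 CPM. In WT-O2 the counts were 798, 660 and 638 (27.2, 22.7 and 21.6 CPM), and in KO-O2 739, 517 and 695 (25.9, 18.3 and 23.2 CPM). Every hyperoxic lung lay far above every room air lung. Summed counts were divided by the scaled library size used for CPM. Their ratio was 231 in WT (95% exact interval 122 to 507) and 247 in KO (125 to 573). These intervals cover counting error only. The fitted log2 fold change was 7.80 in WT (SE 0.317) and 7.88 in KO (SE 0.323). Since few reads define the room air level, leaving out WT-RA replicate 1 gave 8.75 in WT and leaving out KO-RA replicate 3 gave 8.65 in KO. Exons of Muc15, a mucin gene on the opposite strand, overlap those of Ano3; Muc15 averaged 0.0231 to 0.197 CPM in the 4 lung groups. Neuronal markers, listed since ANO3 is known from neurons, summed to 91.9 to 96.6 CPM in WT-RA and 49.4 to 65.3 CPM in WT-O2. In the knockouts they summed to 80.4 to 100.8 CPM in room air and 44.3 to 63.1 CPM in hyperoxia. Most of these sums was Stmn2, which was not called in either genotype. Stmn2 averaged 92.3 and 49.9 CPM in WT-RA and WT-O2, and 91.7 and 51.6 CPM in KO-RA and KO-O2. The sums therefore do not describe the markers as a set. Of the 6 markers 5 were tested, and none of the 6 was at 0. In WT hyperoxia 3 were called higher (Tubb3, Elavl4, Prph) and Syt1 lower, against 11.6% of all genes called. In KO hyperoxia 1 was called higher (Tubb3) and 1 lower (Syt1), against 10.6%. Levels were low, and in WT-RA and WT-O2 Elavl4 averaged 0.148 and 0.363 CPM, Prph 0.183 and 0.499, and Syt1 0.469 and 0.171. Tubb3 averaged 0.286 and 4.36 CPM. The part of these markers in the Ano3 values was not tested.

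Ano1 was abundant in every lung and about 3-fold higher in hyperoxia. It measured 71.5, 72.7 and 66.2 CPM in WT-RA and 224, 200 and 208 CPM in WT-O2. The knockouts measured 79.0, 75.3 and 71.9 CPM in room air and 256, 229 and 267 CPM in hyperoxia. The groups did not overlap in either genotype, with log2 fold changes of 1.59 (SE 0.0824) in WT and 1.73 (SE 0.0826) in KO. Smooth muscle markers, a known site of ANO1, summed to 702 to 1186 CPM in WT-RA and 1489 to 1643 CPM in WT-O2. The KO sums were 699 to 793 CPM in room air and 805 to 1522 CPM in hyperoxia. In each genotype 3 of the 6 markers (Acta2, Cnn1, Actg2) were called higher, against 5.04% (WT) and 4.57% (KO) of all genes. Myh11, Tagln and Des were not called in either genotype. Airway epithelium markers, another known site, summed to 11850 to 14260 CPM in WT-RA and 9925 to 10590 CPM in WT-O2, and to 11250 to 14150 CPM and 7528 to 11270 CPM in KO-RA and KO-O2, which overlapped. Most of that sum was Scgb1a1 (11100 and 8400 CPM on average in WT-RA and WT-O2), while Scgb3a2 averaged 285 and 489 CPM. Of the 6 airway markers 5 were tested, and 1, Muc5b, was called lower in each genotype. Of all genes 6.57% were called lower in WT and 6.03% in KO. Muc5b averaged 144 and 61.7 CPM in WT-RA and WT-O2, and 151 and 16.7 CPM in KO-RA and KO-O2. Their part in the Ano1 values was not tested, and in whole lung a change in the number of cells of a type cannot be told apart from a change in RNA per cell.

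Ano9, an epithelial member at low level, also stood higher. It measured 1.60, 1.95 and 0.585 CPM in WT-RA and 2.83, 4.09 and 2.77 CPM in WT-O2. In the knockouts it measured 1.64, 1.31 and 1.25 CPM in room air and 3.22, 3.36 and 4.21 CPM in hyperoxia. No room air lung reached a hyperoxic lung. The log2 fold change was 1.22 (SE 0.322) in WT and 1.36 (SE 0.321) in KO, and the WT value was 0.86, under a fold of 2, without WT-RA replicate 3.

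The remaining members differed by less than 2-fold or lay near the detection limit. The muscle member Ano5 was lower in hyperoxia, at 3.23 to 3.53 CPM against 1.89 to 2.35 CPM in WT, and 2.46 to 2.75 CPM against 1.52 to 1.68 CPM in KO, with log2 fold changes of -0.67 (SE 0.17) in WT and -0.66 (SE 0.176) in KO. The tether gene Ano8 was 28.1 to 33.5 CPM in WT-RA and 24.8 to 25.8 CPM in WT-O2, a log2 fold change of -0.27 (SE 0.0934), and of -0.38 (SE 0.0936) in KO. Exons of Dda1 overlap those of Ano8 on the opposite strand, and Dda1 averaged 69.8 to 77 CPM in the lung groups. Ano10 was 41.7 to 46.1 CPM in WT-RA and 50.9 to 55.3 CPM in WT-O2, and its log2 fold change was 0.29 in both genotypes (SE 0.0733 each). Ano6 was 172 to 198 CPM in WT-RA and 211 to 221 CPM in WT-O2, with log2 fold changes of 0.23 (SE 0.0883) in WT and 0.31 (SE 0.0883) in KO. All 4 differed by less than 2-fold, and in each genotype their hyperoxic and room air lungs did not overlap.

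Ano4 was 0.558 to 1.11 CPM in WT-RA and 0.580 to 1.204 CPM in WT-O2, overlapping, with log2 fold changes of 0.16 (SE 0.358) in WT and -0.55 (SE 0.378) in KO. The WT value turned negative without WT-RA replicate 1 or WT-O2 replicate 2. Ano2 and Ano7 did not pass the filter on low counts and were not fitted. Ano2 gave 0 to 13 counts and Ano7 1 to 19 counts per lung. Ano2 summed to 21 counts in WT-RA and 8 in WT-O2, a ratio per scaled library size of 0.379 (95% exact interval 0.145 to 0.89). In the knockouts it summed to 15 and 5, a ratio of 0.337 (0.0959 to 0.976). The channel gene of photoreceptors and olfactory cilia was thus barely counted in lung.

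**Figure D2:**
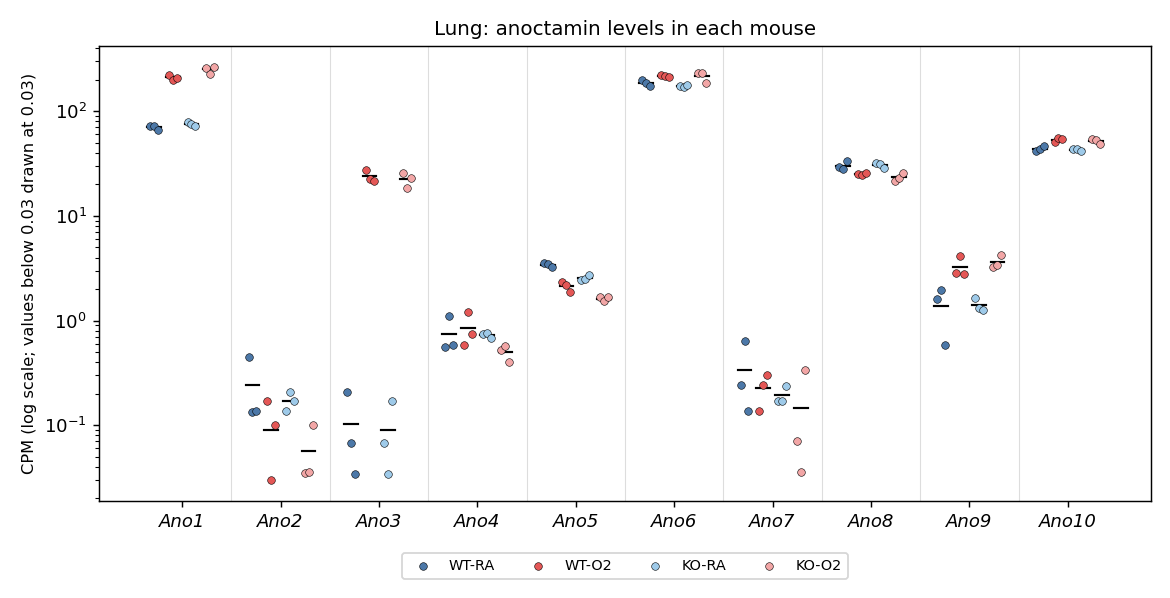
Level of each anoctamin in each of the 12 lungs, in CPM on a log axis, by group; points are mice, bars are group means (n = 3), and values below 0.03 are drawn at 0.03. Ano3 lies at 0.0344 to 0.209 CPM in room air and 18.3 to 27.2 CPM in hyperoxia.

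Of the 8 fitted members, 3 (Ano1, Ano3, Ano9) passed the call rule (fold of at least 2, p below 0.05, adjusted p below 0.1) in WT hyperoxia, all higher. The same 3 passed it in KO hyperoxia. The rule called 11.6% of all 16819 fitted genes in WT and 10.6% in KO, 5.04% and 4.57% higher. Groups did not overlap for 7 of 8 members in WT and 8 of 8 in KO, against 49.8% and 52.4% of all fitted genes. The median log2 fold change of the fitted members was 0.26 in WT and 0.30 in KO, beside -0.0069 and -0.013 over all fitted genes. Since this contrast chose the family, nothing is read from these counts.

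**Figure D3:**
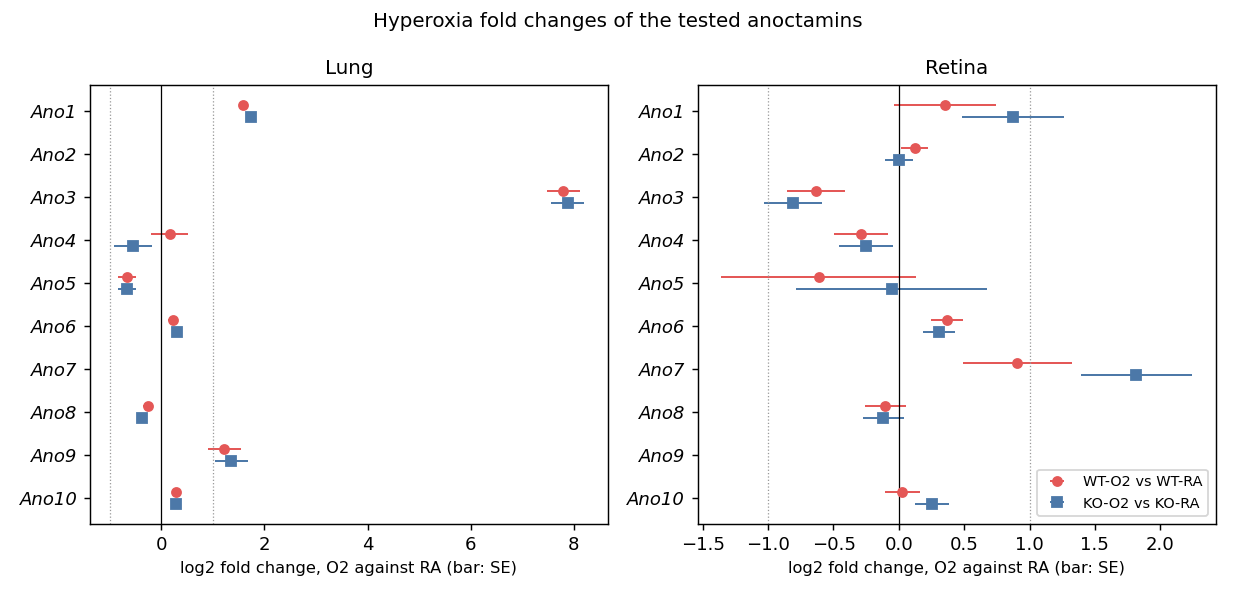
Log2 fold change of hyperoxia against room air for each fitted anoctamin, in WT and in KO (bars are SE; dotted lines mark a fold of 2; the panels have different horizontal scales). In the lung Ano3 lies near 7.8 and Ano1 near 1.6; in the retina Ano3 lies at -0.63 in WT and -0.81 in KO.

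The genotype comparisons in the lung asked whether loss of Gsdmd altered the anoctamins. In KO-O2 against WT-O2 edgeR called 0 of 8 members, as did DESeq2. Over all genes edgeR called 0.0238% of those fitted, and DESeq2 called 0.0886% of 36109. Unadjusted p was under 0.05 for 2 members, against 6.21% of all genes, and 3 members did not overlap, against 12.2% of all genes. Ano1 was higher in all 3 KO-O2 lungs, with a log2 fold change of 0.25 (SE 0.08, adjusted p = 0.565 by edgeR). Ano5 was lower in all 3, with -0.40 (SE 0.178, adjusted p = 0.776). Neither passed adjustment, and the other 6 ranged from -0.76 to 0.16. The lowest was Ano4, also lower in all 3 KO-O2 lungs (at most 0.566 CPM, against at least 0.580 CPM in WT-O2), with a log2 fold change of -0.76 (SE 0.374, adjusted p = 0.829). Ano3 differed by -0.08 (SE 0.176) between KO-O2 and WT-O2.

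In room air 0 of 8 members were called by edgeR or by DESeq2 between KO-RA and WT-RA. Of all genes 0.137% were called by edgeR and 0.194% by DESeq2. Ano5 alone had an unadjusted p under 0.05, as 10.5% of all genes did, and was lower in all 3 KO-RA lungs (as 15.2% of genes did not overlap; log2 fold change -0.41, SE 0.168, adjusted p = 0.406). The other 7 ranged from -0.17 to 0.11. One of them, Ano3, had 1 to 6 counts per room air lung and passed the filter only through the hyperoxic groups, so a difference between room air groups was not detectable at this depth. For the interaction, which asks whether the hyperoxia effect differed between genotypes, both tools called 0 of 8 members. Of all genes edgeR called 0.00595% and DESeq2 0.305%. Unadjusted p by edgeR was under 0.05 for 0 members and for 6.72% of all genes. Interaction values ran from -0.71 to 0.15, and that of Ano3 was 0.08 (SE 0.706), too imprecise to exclude a sizeable difference between genotypes in the fold change.

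Genes whose lung profile was most like those of Ano3 and Ano1 were found by Pearson's r of log2 CPM over the 12 lungs, given without a p because the points share the contrast between room air and hyperoxia. Spink5, a serine protease inhibitor gene of epithelia, came closest to Ano3 (r = 0.9971), with WT means of 13.6 CPM in room air and 116 CPM in hyperoxia and KO means of 15 and 119 CPM. Ccng1, which encodes cyclin G, followed (r = 0.9961, from 70.6 to 272 CPM in WT), then Exoc4, an exocyst subunit (0.9935), Lrrn1, a leucine-rich repeat protein (0.9935), and Slc19a2, a thiamine transporter (0.993). Such a profile was common, since 8.5% of 16811 genes had r above 0.9 with Ano3. The closest to Ano1 were Zfp365, a zinc finger gene (0.9959), Lamb3, a laminin chain (0.9938), Tes, a focal adhesion protein (0.9933), Tinag, a basement membrane antigen (0.9931), and Kif1a, a kinesin (0.9913), and 7.82% of genes had r above 0.9 with it.

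In the retina Ano2 (ENSMUSG00000038115, chr6:125690419-126040126, plus strand) led the family in every group. In WT mice it measured 46.3, 50.4 and 53.2 CPM in room air and 54.6, 51.6 and 56.6 CPM in hyperoxia. In the knockouts the values were 58.3, 46.4 and 49.4 CPM in room air and 57.1, 47.4 and 49.5 CPM in hyperoxia. These overlapped in all comparisons. Per kilobase Ano2 averaged 12.7 CPM per kb in WT-RA, 38.6% of the family's sum, and stood clear of Ano8 (6.78) and Ano10 (6.57), which overlapped. Ano4 (3.04) was next, Ano6 (1.95) and Ano1 (1.196) overlapped, and Ano3 (0.504), Ano7 (0.151) and Ano5 (0.0382) followed. Ano9 was at 0 counts in all 12 retinas, which allows up to 0.103 to 0.121 CPM per library (a limit of 3 counts). The summed family level was 32.9 ± 1.54 and 34.0 ± 1.25 CPM per kb in room air and hyperoxia in WT, and 34.5 ± 2.07 and 36.2 ± 0.711 in KO.

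**Figure D4:**
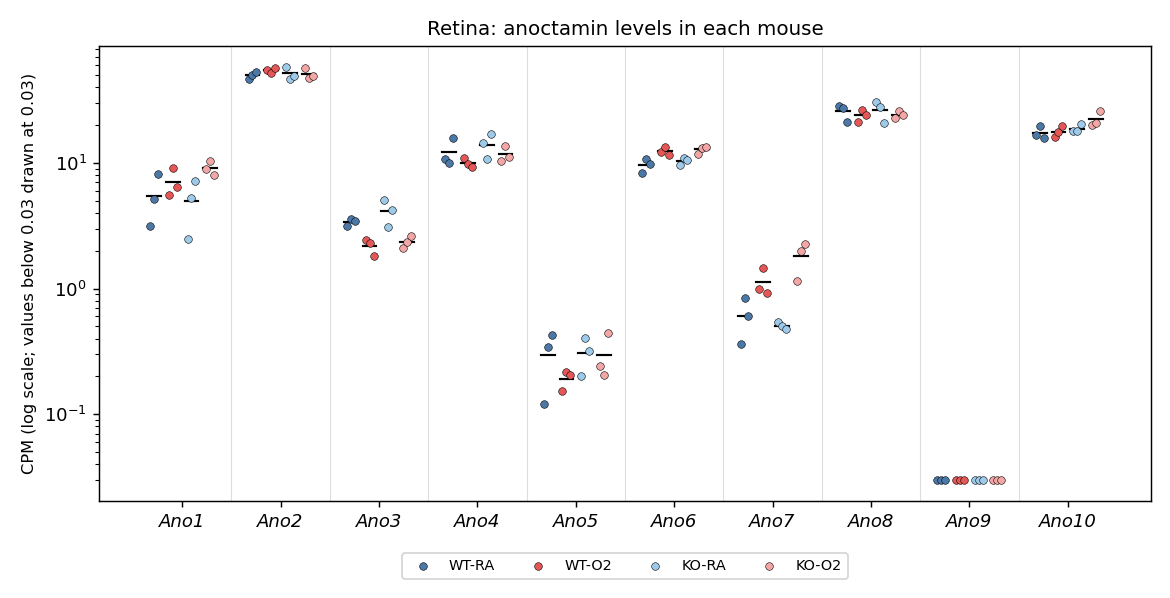
Level of each anoctamin in each of the 12 retinas, in CPM on a log axis, by group; points are mice, bars are group means (n = 3), and values below 0.03 are drawn at 0.03. Ano2 lies at 46.3 to 58.3 CPM in all retinas, and Ano9 is at 0 throughout.

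Ano3, barely counted in room air lungs, was expressed in the room air retina and stood lower after hyperoxia. It measured 3.16, 3.54 and 3.43 CPM in WT-RA and 2.42, 2.31 and 1.80 CPM in WT-O2. In the knockouts it measured 5.04, 3.09 and 4.25 CPM in room air and 2.12, 2.33 and 2.61 CPM in hyperoxia. No hyperoxic retina reached a room air retina of its genotype. The log2 fold change was -0.63 in WT (SE 0.222, adjusted p = 0.167 by edgeR) and -0.81 in KO (SE 0.221, adjusted p = 0.0681). Neither was called, the KO value because its fold was under 2. Without the 3 lens-rich libraries the values were -0.54 (SE 0.349, adjusted p = 0.46) and -0.78 (SE 0.279, adjusted p = 0.209). Over all alternatives the adjusted p ran from 0.148 to 0.46 in WT and from 0.0288 to 0.225 in KO. Neuronal markers summed to 1561 to 1943 CPM in WT-RA and 1393 to 1456 CPM in WT-O2. In the knockouts they summed to 1876 to 2125 CPM in room air and 1496 to 1670 CPM in hyperoxia. In each genotype 0 of 6 were called, against 2.04% (WT) and 2.19% (KO) of all genes. Their part in the Ano3 values was not tested.

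Ano7, the prostate member, was the only anoctamin called in the retina, in KO hyperoxia. It measured 0.541, 0.505 and 0.477 CPM in KO-RA and 1.15, 1.98 and 2.27 CPM in KO-O2, without overlap. The log2 fold change was 1.82 (SE 0.425, adjusted p = 0.0413 by edgeR). In WT it measured 0.36, 0.839 and 0.6 CPM in room air and 1.00, 1.47 and 0.919 CPM in hyperoxia, also without overlap, with a log2 fold change of 0.91 (SE 0.419, adjusted p = 0.292), and 1.63 (SE 0.619, adjusted p = 0.21) without the lens-rich libraries. The call was lost without the lens-rich libraries (1.78, SE 0.46, adjusted p = 0.108) and with sex as a covariate (1.81, adjusted p = 0.106). It was also lost without any of the 3 KO-RA replicates or KO-O2 replicate 2 or 3 (1.62 to 1.87, adjusted p = 0.103 to 0.149). DESeq2 gave 1.83 (SE 0.489, adjusted p = 0.00452), the lowest adjusted p of the alternatives. The difference between genotypes in the Ano7 effect was 0.91 (SE 0.59, adjusted p = 0.61), and 0.15 (SE 0.741) without the lens-rich libraries.

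The scramblase gene Ano6 had its higher values in the hyperoxic retinas. It measured 8.28, 10.6 and 9.85 CPM in WT-RA and 12.3, 13.4 and 11.5 CPM in WT-O2. In the knockouts it measured 9.598, 10.9 and 10.6 CPM in room air and 11.8, 13.2 and 13.4 CPM in hyperoxia. The groups did not overlap, but the log2 fold changes of 0.37 in WT (SE 0.123, adjusted p = 0.147) and 0.31 in KO (SE 0.122, adjusted p = 0.189) did not pass adjustment. Without the lens-rich libraries they were 0.58 (SE 0.175, adjusted p = 0.139) and 0.32 (SE 0.134, adjusted p = 0.271), and over all alternatives the adjusted p ran from 0.104 to 0.373 and from 0.139 to 0.412.

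Ano1 varied widely among room air retinas, at 3.12, 5.15 and 8.18 CPM in WT-RA and 2.50, 5.28 and 7.11 CPM in KO-RA. WT-O2 retinas overlapped them (5.50, 9.04 and 6.43 CPM), with 1 above every room air retina, and KO-O2 retinas lay above the KO-RA retinas (8.99, 10.3 and 7.97 CPM). The WT log2 fold change was 0.35 (SE 0.388, adjusted p = 0.706), and 1.16 (SE 0.451, adjusted p = 0.221) without the lens-rich libraries. The KO log2 fold change was 0.87 (SE 0.389, adjusted p = 0.236) and 1.22 (SE 0.341, adjusted p = 0.127) without the lens-rich libraries, with an adjusted p of 0.127 to 0.502 over all alternatives. In both genotypes the highest room air value came from a lens-rich library (WT-RA replicate 3 and KO-RA replicate 3). Smooth muscle markers summed to 16.5 to 37.0 CPM in KO-RA and 37.8 to 54.9 CPM in KO-O2. Of these 1 of 6 (Actg2) was called higher, against 1.64% of all genes. In WT, where Ano1 overlapped, they summed to 21.1 to 55.5 CPM in room air and 49.7 to 95.1 CPM in hyperoxia. There 2 of 6 (Des, Actg2) were called higher, against 1.77% of all genes. The part of these markers in the Ano1 values was not tested.

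Between genotypes after hyperoxia, Ano10 was higher in KO-O2 (20.0, 20.8 and 25.9 CPM) than in WT-O2 (16.0, 17.4 and 19.8 CPM), without overlap, as were 19.9% of all genes. The log2 fold change was 0.32 (SE 0.132, adjusted p = 0.33), and the value without the lens-rich libraries was also 0.32 (SE 0.131, adjusted p = 0.376), with an adjusted p of 0.24 to 0.692 over all alternatives. The remaining retina members overlapped between hyperoxia and room air in both genotypes. Ano8 ran from 20.6 to 30.6 CPM, Ano4 from 9.22 to 16.8 CPM, and Ano5 from 0.12 to 0.441 CPM over all 12 retinas.

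In WT retinas 0 of 9 fitted members were called in hyperoxia, by edgeR or DESeq2. The rule called 2.04% of 19173 genes with edgeR and 1.74% of 36595 genes with DESeq2. Unadjusted p was under 0.05 for 2 members, against 17.4% of all genes, and 3 did not overlap, against 24% of all. In KO retinas 1 of 9 was called, higher, against 2.19% of all genes called and 1.64% called higher, 4 had an unadjusted p under 0.05 against 20.3%, and 4 did not overlap against 26.2%. Both tools called 0 of 9 between KO-O2 and WT-O2 (0.292% of all genes with edgeR, 0.448% with DESeq2). By edgeR 1 member had an unadjusted p under 0.05, against 12.6% of all genes. The 2 tools also called 0 of 9 between KO-RA and WT-RA and for the interaction. Of all genes edgeR called 0.00522% in each, and DESeq2 called 0.172% and 1.49%. By edgeR 0 members had an unadjusted p under 0.05, against 12.7% and 10.6% of all genes. Without the lens-rich libraries, which leaves WT-RA with 1 retina taken to vary like the other groups, 0 of 9 were called in each of the 5 comparisons. Over the 12 retinas the genes most like Ano2 were Pter (r = 0.8801), BC025920 (0.8742), Olfr204 (0.8683), Gm48331 (0.8613) and Ccdc66 (0.8566), and 0 of 19164 genes had r above 0.9. Group means were 0.851 to 1.53 CPM for Olfr204 and 0 to 0.566 CPM for Gm48331, so their r rests on low counts. Ano2 itself ran only from 46.3 to 58.3 CPM, and no shared profile is read from these values.

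Other genes of the same functions were counted by the same rule. Of 29 other chloride channel genes fitted in the lung, 2 were called higher and 0 lower in WT hyperoxia, against 11.6% of all genes, with a median log2 fold change of 0.07. These were Clca3a1, a secreted regulator of calcium-activated chloride current, which averaged 1.62 CPM in room air and 17.1 CPM in hyperoxia (log2 fold change 3.39, SE 0.247, adjusted p = 1.37e-07), and Clcn5, an endosomal chloride-proton exchanger, at 13.9 and 28.0 CPM (1.007, SE 0.107, adjusted p = 4.62e-06). In KO lungs both were again called higher, and Clca1 and Ttyh1 lower, which made 13.8% of the list against 10.6% of all genes. In the retina 1 of 30 was called in WT hyperoxia (3.33%, against 2.04% of all genes), the chloride intracellular channel gene Clic1, with means of 24.9 CPM in room air and 51.0 CPM in hyperoxia (1.03, SE 0.165, adjusted p = 0.00912). Without the lens-rich libraries that count was 0. In KO retinas 1 of 30 was called, Clic6, lower, against 2.19% of all genes.

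Of 28 scramblase and flippase genes fitted in the lung, 2 were called higher and 2 lower in WT hyperoxia, 14.3% of the list against 11.6% of all genes. Vmp1, a scramblase of the endoplasmic reticulum that acts in autophagy, rose from 66.8 to 160 CPM (1.26, SE 0.0937, adjusted p = 1.37e-07). Plscr1 fell from 50.2 to 23.3 CPM (-1.10, SE 0.0966, adjusted p = 6.72e-07) and Plscr4 from 54.0 to 25.9 CPM (-1.06, SE 0.111, adjusted p = 3.96e-06), both phospholipid scramblase family members. In KO lungs 2 were called higher and 1 lower, 10.7% of the list against 10.6% of all genes. In the retina 0 of 27 were called in either genotype by edgeR or DESeq2. The edgeR share over all genes was 2.04% in WT and 2.19% in KO. Unadjusted p was under 0.05 for 0 of 27 in WT and 7 in KO, against 17.4% and 20.3% of all genes. Of 9 fitted members of the TMC and TMEM63 families, relatives of the anoctamins, 1 was called lower in each lung contrast, Tmem63c, at a mean of 0.149 CPM over the WT lungs (11.1% of the list, against 11.6% and 10.6% of all genes in WT and KO). In the retina 0 of 10 were called by edgeR in WT hyperoxia and 1 by DESeq2. Unadjusted p by edgeR was under 0.05 for 3 of them, against 17.4% of all genes. In KO hyperoxia edgeR called 1 higher, Tmem63a. These edgeR counts stand against 2.04% (WT) and 2.19% (KO) of all genes called. Clca1, Ttyh1, Clic6, Tmem63c and Tmem63a were named after their values were seen.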

How the data were processed

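RNA from 12 lungs and 12 retinas of mice was sequenced as paired 150-base reads. The authors ran kallisto and then tximport to obtain gene-level expected counts, that is estimated counts, which they deposited as a table for each tissue. The submitters' notes name mm10, while the study's methods name a later assembly. Whole values (within 0.01) made up 55.8% of the lung table and 2.2% of the retina table, so retina counts may have been rescaled, and tests stayed within a tissue. Library totals were 28763661 to 29604254 in the lung and 24863257 to 29093035 in the retina, and 3 counts corresponded to 0.101 to 0.104 and 0.103 to 0.121 CPM. Whether strand was used in counting is not given in the sources used here; genes on the opposite strand overlap exons of Ano3, Ano6 and Ano8. No column of per-sample values was left unused.

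Groups followed the labelled genotype and exposure. Rounded counts were fitted in edgeR 4.0.16 (R 4.3.3) with all 12 samples of a tissue, TMM factors, filterByExpr (16819 and 19173 genes) and robust quasi-likelihood tests with Benjamini-Hochberg adjustment over all fitted genes. Calls needed a fold of at least 2, p below 0.05 and an adjusted p below 0.1, and for the interaction the last of these alone. SE was taken as the size of the log2 fold change divided by the root of F. The labels do not say that mice came from separate litters. Levels are CPM with TMM factors. Lengths, coordinates and exon overlaps came from GENCODE M21 (GRCm38). The scripts were tested on simulated data.

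The members and lists were chosen with earlier results of these data known. Named were all 10 members by level; members called or with p under 0.05 outside the lung hyperoxia contrasts; up to 3 genes of each list with the smallest p among those called in WT hyperoxia at a mean of at least 1 CPM; the 5 genes most like Ano3 and Ano1 (lung) and Ano2 (retina); and Gsdmd. Alternatives were RLE factors, no low-count filter, DESeq2 1.42.0, a fit of 2 groups, a sex covariate (Y-linked sum above 20 CPM), CPM of the library total, leaving out each sample, and, chosen after seeing the data, leaving out the 3 lens-rich retina libraries. The deposited tables were not joined across tissues.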

Additional observations from a re-analysis of the deposited data

Results flagged for a closer look

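The Ano3 values of hyperoxic mice lay on opposite sides of those in room air in the 2 tissues. In every hyperoxic lung it lay above every room air lung of its genotype, and in every hyperoxic retina below every room air retina of its genotype. The log2 fold change was 7.80 in the lung and -0.63 in the retina of WT mice, and 7.88 and -0.81 in KO mice. The lung values chose the family and are a description. The retina values were not called in either genotype (adjusted p = 0.167 by edgeR in WT, and 0.0681 at a fold under 2 in KO), nor without the lens-rich libraries (adjusted p = 0.46 and 0.209). The difference between tissues was not tested, since the tables were counted and fitted separately, and the tissues differ in oxygen level, days of exposure, recovery time and age as well as in kind. Groups of 3 mice are too small for a test of single outlying samples.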

How the results depend on the processing

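The lung hyperoxia contrasts chose the family, so their counts are listed only as values. The count of called anoctamins was 3 in each hyperoxia contrast under all 5 alternatives of tool, scaling, filter, fit and sex. It was 2 to 3 in WT and 3 in KO when single lungs were left out, the 2 coming without WT-RA replicate 3 (Ano9). The lung genotype and interaction counts were 0 throughout. Ano4 changed sign in WT hyperoxia without WT-RA replicate 1 (-0.011) and without WT-O2 replicate 2 (-0.18), and ran from -0.18 to 0.56 over single lungs left out. The retina KO hyperoxia count fell from 1 to 0 with the sex covariate and without the lens-rich libraries, and was 0 to 1 over single retinas left out; the causes were not tested. The other retina anoctamin counts were 0 throughout. The number of members reaching a group mean of 1 CPM, 7 in the lung and 8 in the retina, did not change with CPM of the library total.

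Counts of related genes rested on few calls. TMC and TMEM63 relatives in the lung fell from 1 to 0 with the fit of 2 groups (both genotypes) and the sex covariate (WT), and were 0 to 1 (WT) and 1 (KO) over single lungs left out. In the retina they were 1 with DESeq2 in WT, 3 with DESeq2 in KO, and 0 in KO without filter, with the fit of 2 groups, with the sex covariate and without lens-rich libraries; over single retinas left out they were 0 to 1 in each genotype. Retina chloride channels were 2 with DESeq2 in each genotype, 0 in each without lens-rich libraries, and 0 in KO without filter, with the fit of 2 groups and with the sex covariate; over single retinas left out they were 0 to 2 in WT and 0 to 1 in KO. Lung chloride channels were 1 to 3 in WT and 4 to 5 in KO over single lungs left out. Lung scramblases and flippases were 3 to 6 in WT and 2 to 3 in KO, and 0 in the retina throughout.

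No paired analysis was possible because the labels give no replicate numbers to pair mice across groups. Members below about 1 CPM (Ano2, Ano4 and Ano7 in the lung, Ano5 in the retina) rest on few counts per library, which limits the precision of their fold changes. The same limit applies to the hyperoxia fold changes of lung Ano3 and retina Ano7, whose room air levels were also low. No room air library held more than 6 counts of Ano3 (lung) or 22.3 counts of Ano7 (retina).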
